A study of Homo sapiens with 6 samples.

Results

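The genes described here encode cell surface adhesion molecules: cadherins, adhesion molecules of the immunoglobulin superfamily, and the surface proteins CD44 and CD9. They were taken from a list of 46 gene symbols, all of which were found among the 60669 genes counted in each library. The list holds 20 CDH genes and 26 others. CDH13 and CDH17 are set apart from the classical cadherins by their cytoplasmic ends, and CD44 and CD9 belong to neither family, so the name of the group covers most but not all of its genes. The cells were 293T, an immortal line from human fetal kidney, in 3 groups of 2 libraries each: an MLL2 knockout made by CRISPR/Cas9 gene editing, a PRMT1 knockdown made by shRNA, and control cells labelled wild type. No treatment was recorded for any group, and the libraries of a group were described as biological replicates. The sources used here do not state whether the knockout was 1 clone. The file headers mark the control and knockout alignments with shNT and the knockdown alignments with shPR, which may mean that the control and knockout cells carried a hairpin too; the labels do not explain these marks. MLL2 has been used as a name for both KMT2B and KMT2D. Each is a histone H3 lysine 4 methyltransferase, and PRMT1 is the main enzyme that makes asymmetric dimethylarginine.

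Classical cadherins bind the same cadherin on a neighbouring cell in the presence of calcium, and their cytoplasmic tails hold beta-catenin and p120-catenin, which lead to alpha-catenin and actin. E-cadherin (CDH1) and P-cadherin (CDH3) mark epithelia, while N-cadherin (CDH2) marks neural, mesenchymal and many renal cells. Type II cadherins such as CDH7 and CDH24 share this build and are best known from the nervous system. Of the immunoglobulin molecules, NCAM1 and the L1 family (L1CAM, CHL1, NRCAM, NFASC) act in axon growth, contactins are held by a lipid anchor, nectins bind afadin beside the cadherins, and JAM proteins lie at tight junctions.

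The start regions of genes that changed in both depletions are shown because histone H3 lysine 4 methylation collects at starts rich in CG dinucleotides. The windows run from 250 bases before to 50 bases after a RefSeq start site on build GRCh38.p14, on the strand of the gene, and capitals mark each CG. Of 10 such genes, 5 matched the RefSeq table, and 4 had a start site within 1000 bases of the gene edge in the count files. CDH7 lay on the plus strand (chr18:65750002-65750301), CDH2 on the minus strand (chr18:28177081-28177380), NRCAM on the minus strand (chr7:108456387-108456686) and CD9 on the plus strand (chr12:6199696-6199995).
CDH7: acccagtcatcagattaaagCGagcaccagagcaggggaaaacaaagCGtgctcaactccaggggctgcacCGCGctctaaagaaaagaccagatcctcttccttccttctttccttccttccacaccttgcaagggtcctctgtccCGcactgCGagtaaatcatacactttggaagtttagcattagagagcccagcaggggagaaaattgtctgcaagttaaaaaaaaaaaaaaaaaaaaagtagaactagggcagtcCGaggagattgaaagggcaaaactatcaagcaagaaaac
CDH2: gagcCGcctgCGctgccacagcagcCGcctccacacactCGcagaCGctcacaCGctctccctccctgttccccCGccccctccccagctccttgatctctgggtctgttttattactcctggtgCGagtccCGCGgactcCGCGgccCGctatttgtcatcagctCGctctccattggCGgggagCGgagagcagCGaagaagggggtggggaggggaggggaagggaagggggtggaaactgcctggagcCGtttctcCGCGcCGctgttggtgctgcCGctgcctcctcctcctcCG
NRCAM: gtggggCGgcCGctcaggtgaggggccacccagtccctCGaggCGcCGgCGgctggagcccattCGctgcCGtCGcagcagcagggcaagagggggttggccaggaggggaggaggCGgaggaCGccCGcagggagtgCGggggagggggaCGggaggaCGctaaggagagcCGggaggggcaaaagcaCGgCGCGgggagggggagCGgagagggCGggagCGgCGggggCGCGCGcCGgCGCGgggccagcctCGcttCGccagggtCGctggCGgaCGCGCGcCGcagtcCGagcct
CD9: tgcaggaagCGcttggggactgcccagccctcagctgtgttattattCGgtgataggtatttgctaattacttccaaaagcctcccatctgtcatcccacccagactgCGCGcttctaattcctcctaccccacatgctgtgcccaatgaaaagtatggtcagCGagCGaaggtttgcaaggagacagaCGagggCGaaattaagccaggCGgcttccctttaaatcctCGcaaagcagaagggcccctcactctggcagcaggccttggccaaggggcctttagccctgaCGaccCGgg
The NRCAM window held 38 CG, a number reached by 9.91% of all 35116 windows in the table. The CDH2 window held 23 CG, reached by 35.8% of windows, the CD9 window 12, reached by 53.1%, and the CDH7 window 7, reached by 63.2%. The median over all windows was 14, and 96.0% of windows held at least 1 CG on either strand, the pair being its own complement. These are the windows nearest the gene edge. CDH7 and CD9 each had a further window within the same 1000 bases, with start sites 760 and 685 bases from the edge and 41 and 32 CG, so the number at these genes depends on the start site taken.

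Total counts per library ran from 20061471 to 22351532, and the filter on low counts kept 17575 genes. PRMT1 stood at 38.2 and 34.9 CPM in the knockdown and 306 and 318 CPM in the control libraries, where CPM relates each count to its library's TMM-scaled total (-3.10 log2, adjusted p = 5.5e-16), and at 406 and 425 CPM in the knockout. KMT2B had 7.11 and 7.35 CPM in knockout cells, 13.4 and 26.7 CPM in the knockdown and 6.73 and 7.52 CPM in control cells. KMT2D had 20.7 and 24.2, 37.7 and 95.4, and 22.4 and 17.0 CPM in the same order, so neither messenger RNA checks the knockout label. Against control, both were called higher in the knockdown (KMT2B 1.49, adjusted p = 3.1e-05, and KMT2D 1.76, adjusted p = 8.4e-06). PRMT1 was called higher in the knockout (0.41, adjusted p = 8.9e-04). All 9 markers of 293T cells on the list used here had counts, summing to 816 to 822 CPM in the knockout, 892 to 942 CPM in the knockdown and 1096 to 1113 CPM in control cells, although the renal marker PAX2 was at only 0.0490 to 0.541 CPM. In the knockout 3 of them were lower (NEFL -1.18, NEFM -2.02 and KRT8 -2.42 log2) and 0 higher, and in the knockdown 5 were lower (NEFL -2.67, NEFM -1.59, KRT8 -2.32, KRT18 -0.71 and LHX1 -3.42) and 2 higher (VIM 0.55 and EYA1 0.62). Of all genes tested, 12.1% were called lower and 10.3% higher in the knockout, and 25.3% and 22.2% in the knockdown. Markers of other cells were near 0: the 6 endothelial markers summed to 1.37 to 1.57 CPM in the knockout, 2.08 to 2.15 CPM in the knockdown and 1.30 to 1.52 CPM in control cells, most of it KDR, with CLDN5 at 0 throughout. Sums of 6 fibroblast and muscle markers were 4.43 to 4.56 CPM in the knockout, 4.91 to 6.91 CPM in the knockdown and 6.19 to 7.23 CPM in control cells, and those of 7 blood and immune markers, with CD3E at 0 throughout, were 1.62 to 2.40, 0.869 to 1.49 and 2.46 to 3.19 CPM in the same order of groups. Bulk counts cannot tell fewer cells of a type from less RNA per cell. Log2 changes are from the quasi-likelihood test of edgeR, and the SE is the size of the change divided by the root of the test's F statistic. That test shares its estimate of spread over all 6 libraries and between genes, so the SE is not the spread of the 2 libraries of a group. Every adjusted p is a Benjamini-Hochberg value over the whole table of tested genes.

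A few genes carried most of the adhesion messenger RNA. Per kilobase of annotated exon (RPKM, from the same scaled counts), JAM3, a junctional adhesion molecule, and CDH2 led the control libraries, JAM3 at 27.4 and 27.2 RPKM and CDH2 at 26.4 and 23.8 RPKM. ALCAM, a homophilic immunoglobulin molecule, followed at 18.0 and 17.4 RPKM, and NECTIN2, CADM1 and CD9 at 11.2 and 12.7, 10.3 and 10.4, and 8.14 and 8.20 RPKM. CNTN1 (6.37 and 5.80 RPKM), MCAM (5.56 and 5.62) and NECTIN3 (mean 5.06) lay close together, and the ranges of CADM4 (2.65 and 3.35) and NCAM1 (2.58 and 2.09) were almost adjoining. Together JAM3, CDH2 and ALCAM made up 20.7%, 19.0% and 13.4% of the summed RPKM of the 46 genes. In both depletions the mean level of CDH2 stood above that of JAM3: in the knockout CDH2 had 32.9 and 33.6 RPKM and JAM3 24.3 and 23.4 RPKM, and in the knockdown 32.6 and 31.0 RPKM and 25.6 and 23.3 RPKM. CDH1 and CDH3, the epithelial cadherins, were at 0.531 and 0.467 RPKM and 0.927 and 0.882 RPKM in control cells. Exon lengths cover all annotated exons, including those these cells may not use.

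**Figure D1:**
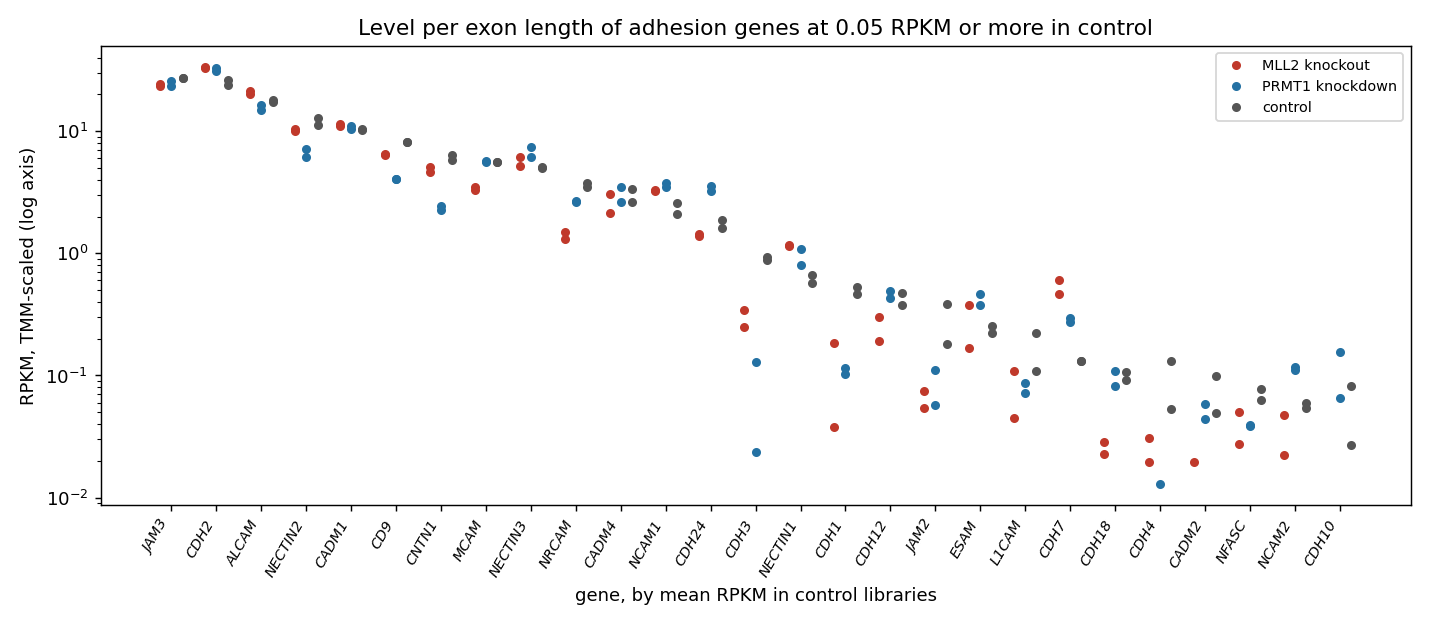
Level per kilobase of exon (RPKM, log axis) of the 27 adhesion genes at 0.05 RPKM or more in control cells, ordered by their control mean, with 1 point per library for the MLL2 knockout, the PRMT1 knockdown and control; a library with 0 counts has no point. JAM3, CDH2 and ALCAM lie at the top in every group, and CDH3, CDH1 and JAM2 lie lower in both depletions than in control cells.

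Of the 46 genes, 27 passed the filter, 8 of the 20 CDH genes and 19 of the 26 others, and the counts that follow are over these. The libraries of 2 groups could lie apart in genes that were not called, such as CADM1. Separation of libraries alone is therefore not taken as a change, and how often it held over all genes was not counted. In the MLL2 knockout 11 were called against control, or 40.7% of those tested, beside 22.4% of all genes tested; 4 were higher (10.3% of all genes were called higher) and 7 lower (12.1%). In the PRMT1 knockdown 13 were called, 48.1% beside 47.4% of all genes, 6 higher (22.2% of all genes) and 7 lower (25.3%), a share near the background. The median log2 change was -0.33 in the knockout and 0.01 in the knockdown, against -0.01 and -0.04 over all genes tested. Both comparisons use the same control libraries, so their values are set side by side only. The adhesion genes were chosen with earlier results of these data known, so their share beside that of all genes does not test the group. Of the 17575 genes tested, 13328 were protein-coding. The knockout count fell to 6 without control replicate 1, 3 without control replicate 2, and 7 without knockout replicate 1 or without knockout replicate 2. In the same fits the share of all genes called was 11.3%, 10.04%, 11.4% and 11.8%, against 22.4% with every library. The knockdown count ran from 9 to 14 when 1 library was left out, where 33.8% to 43.3% of all genes were called. Genes of 8000 nt of exon and over had a median log2 change of 0.16 in the knockdown and those under 1000 nt -0.45, and 9 of the 27 adhesion genes were of 8000 nt or more. After a correction for exon length all 13 knockdown calls were still made, and 10 of the 11 knockout calls.

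**Figure D2:**
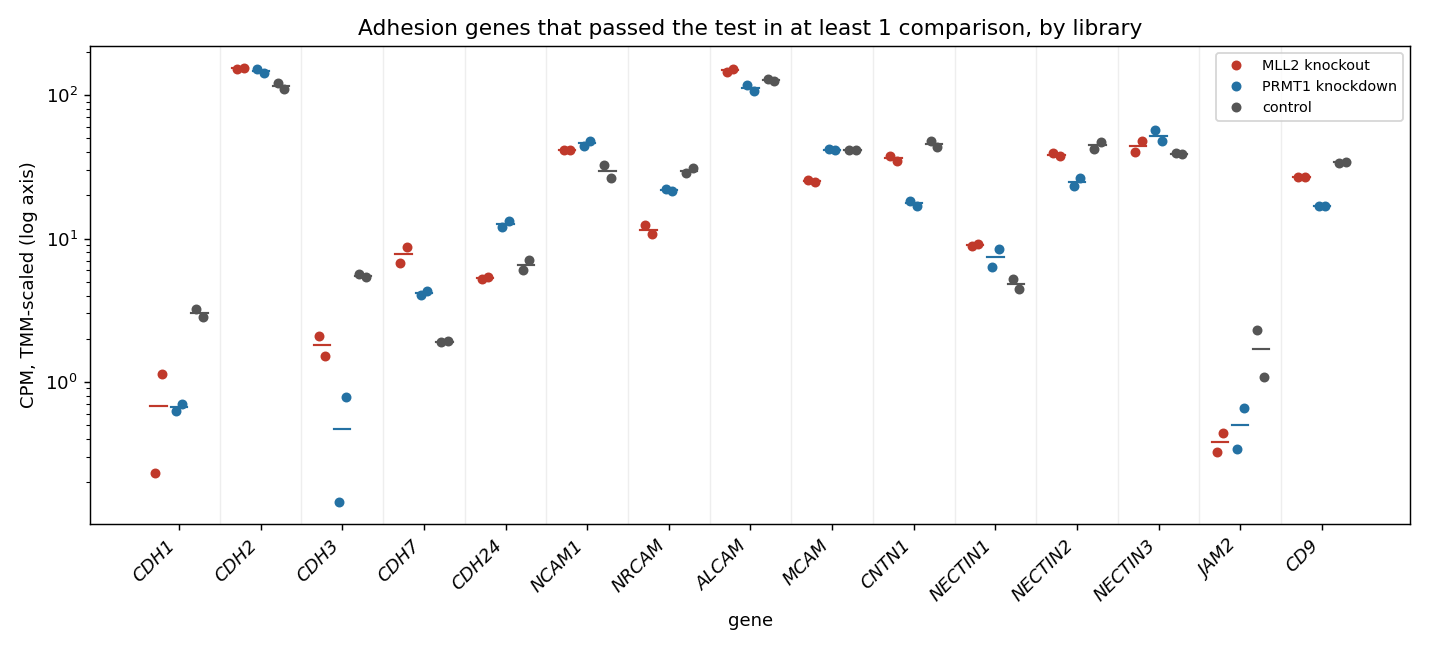
TMM-scaled CPM (log axis) of the 15 adhesion genes that passed the test in at least 1 comparison, with 1 point per library for the MLL2 knockout, the PRMT1 knockdown and control and a bar at each group mean. CDH1, CDH3 and JAM2 lie lower in both depletions than in control cells, and CDH2, CDH7 and NECTIN1 higher.

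Among type I cadherins the epithelial genes fell and CDH2 rose. CDH1 (E-cadherin, chromosome 16, 68737292 to 68835541) had 0.231 and 1.13 CPM in the knockout, 0.628 and 0.701 CPM in the knockdown, and 3.24 and 2.85 CPM in control cells. Every depleted library lay below both control libraries. Counts of CDH1 were few, 5 and 23 in the knockout, 13 and 16 in the knockdown, and 65 and 58 in control cells. The gene was 4.49-fold lower in the knockout (-2.17 ± 0.60, adjusted p = 0.0118) and 4.58-fold lower in the knockdown (-2.18 ± 0.59, adjusted p = 0.00458). The knockout call was not made without control replicate 1 (-2.07), control replicate 2 (-2.25) or knockout replicate 1 (-1.43), and without knockout replicate 2 the change was -3.68.

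CDH3 (P-cadherin), which lies just upstream on the same strand (chromosome 16, 68636189 to 68722616), had 2.08 and 1.52 CPM in the knockout, 0.145 and 0.789 CPM in the knockdown and 5.63 and 5.36 CPM in control cells. The 3 groups did not overlap, with the knockdown lowest. It was 3.06-fold lower in the knockout (-1.61 ± 0.44, adjusted p = 0.0108) and 11.8-fold lower in the knockdown (-3.51 ± 0.51, adjusted p = 7.9e-06), the steepest fall among the 27 genes. The size of this fall rests on few counts of CDH3, 3 and 18 in the knockdown and 113 and 109 in control cells. Without knockdown replicate 1 the knockdown change was -2.80 and without knockdown replicate 2 it was -5.19. The knockout call was not made without control replicate 1 (-1.57), control replicate 2 (-1.64) or knockout replicate 2 (-1.39). The 81 well expressed genes within 5 Mb of either cadherin had a median log2 change of 0.09 in the knockout and 0.02 in the knockdown. Of 6 markers of mature epithelium, KRT5 was at 0 in every library. They summed to 0.416 and 0.539 CPM in the knockout, 2.22 and 1.10 CPM in the knockdown, and 0.748 and 3.29 CPM in control cells. The control libraries differed here: EPCAM had 13 and 41 counts in them, GRHL2 0 and 11, and OVOL1 0 and 10. KRT8, a keratin of simple epithelia on the list of 293T markers, had 6.37 and 6.42 CPM in the knockout, 7.004 and 6.75 CPM in the knockdown, and 31.0 and 37.7 CPM in control cells, and was 5.37-fold lower in the knockout (adjusted p = 2.3e-09) and 4.99-fold lower in the knockdown (adjusted p = 5.7e-10). KRT18, another keratin on that list, had 82.0 and 82.2 CPM in the knockout, 62.9 and 54.8 CPM in the knockdown, and 90.1 and 101.9 CPM in control cells. It was not called in the knockout (-0.23, adjusted p = 0.0981) and was 1.63-fold lower in the knockdown (adjusted p = 4.4e-06). EPCAM, on the list of mature epithelium, was called in neither (-1.79, adjusted p = 0.0753, and 0.25, adjusted p = 0.773). The part of these markers in the CDH1 and CDH3 changes was not tested.

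CDH2 (N-cadherin, chromosome 18, 27950966 to 28177130), the dominant cadherin of these cells, had 153 and 156 CPM in the knockout, 151 and 144 CPM in the knockdown, and 122 and 110.4 CPM in control cells. All 4 depleted libraries lay above both control libraries. The rises were small, 1.33-fold in the knockout (0.41 ± 0.09, adjusted p = 0.00158) and 1.27-fold in the knockdown (0.34 ± 0.09, adjusted p = 0.00227), and without control replicate 2 neither was called (0.34 and 0.26). CDH4 (R-cadherin) did not pass the filter, with 5 and 3 counts in the knockout, 2 and 0 in the knockdown, and 8 and 20 in control cells.

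Of the type II cadherins, CDH7 rose most. CDH7 (chromosome 18, 65750252 to 65890337) had 6.79 and 8.77 CPM in the knockout, 4.01 and 4.30 CPM in the knockdown, and 1.89 and 1.92 CPM in control cells. The groups stood apart, with the knockout highest and control lowest. It was 4.08-fold higher in the knockout (2.03 ± 0.29, adjusted p = 4.2e-05) and 2.18-fold higher in the knockdown (1.12 ± 0.29, adjusted p = 0.00349), and both calls were made in every alternative fit that was run. The 13 well expressed genes within 5 Mb of it had median log2 changes of 0.13 and 0.19. CDH24, a cadherin that also binds catenins (chromosome 14, 23047062 to 23057538), had 5.22 and 5.39 CPM in the knockout, 12.0 and 13.3 CPM in the knockdown, and 6.03 and 7.03 CPM in control cells. It rose in the knockdown (1.94-fold, 0.95 ± 0.20, adjusted p = 6.0e-04), and its knockout change was not past the threshold. CDH12, a cadherin of the brain, had 1.71 and 1.08 CPM in the knockout, 2.42 and 2.76 CPM in the knockdown, and 2.69 and 2.11 CPM in control cells, and it was called in neither. CDH11 and CDH18 were below 1 CPM in every library and were not called.

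The neural immunoglobulin genes moved in different directions. NCAM1, the neural cell adhesion molecule that can carry polysialic acid (chromosome 11, 112961247 to 113278436), had 41.8 and 41.6 CPM in the knockout, 44.1 and 48.3 CPM in the knockdown, and 32.8 and 26.6 CPM in control cells. All depleted libraries were above the control libraries. It rose 1.40-fold in the knockout (0.49 ± 0.12, adjusted p = 0.00516), a call not made without control replicate 2 (0.34), and 1.56-fold in the knockdown (0.64 ± 0.12, adjusted p = 1.4e-04). NRCAM, an L1 family protein that binds ankyrins (chromosome 7, 108147623 to 108456717), had 12.3 and 10.8 CPM in the knockout, 22.2 and 21.5 CPM in the knockdown, and 28.8 and 30.9 CPM in control cells. Here the knockout libraries were the lowest. NRCAM was 2.58-fold lower in the knockout (-1.37 ± 0.14, adjusted p = 8.8e-07) and 1.36-fold lower in the knockdown (-0.45 ± 0.14, adjusted p = 0.00932; -0.40 and not called without control replicate 2).

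CNTN1, a contactin that partners NRCAM and NFASC in the nervous system (chromosome 12, 40692439 to 41072415), had 37.9 and 34.7 CPM in the knockout, 18.2 and 17.0 CPM in the knockdown, and 47.8 and 43.5 CPM in control cells. The knockdown libraries were the lowest, at less than the level of any other library. The gene was 2.59-fold lower in the knockdown (-1.37 ± 0.12, adjusted p = 1.0e-08), the smallest adjusted p among these genes in that comparison. In the knockout it was 1.26-fold lower (-0.33 ± 0.11, adjusted p = 0.0439), close to the threshold: the call was not made without control replicate 1 (-0.26), control replicate 2 (-0.39), knockout replicate 1 (-0.39) or knockout replicate 2 (-0.26), nor with relative log expression scaling (-0.31). The other L1 family genes were weak. L1CAM had 0.323 and 0.784 CPM in the knockout, 0.628 and 0.526 CPM in the knockdown, and 0.798 and 1.62 CPM in control cells. NFASC had 1.06 and 0.588 CPM in the knockout, 0.821 and 0.833 CPM in the knockdown, and 1.64 and 1.33 CPM in control cells. Their depleted libraries all lay below control, but neither gene was called. NCAM2 stayed below 1 CPM throughout and was not called.

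MCAM fell in the knockout, and ALCAM and the CADM genes were not called against control. MCAM, a homophilic and laminin-binding immunoglobulin molecule (chromosome 11, 119308529 to 119321521), had 25.8 and 24.6 CPM in the knockout, 41.9 and 41.4 CPM in the knockdown, and 41.3 and 41.7 CPM in control cells. Only the knockout libraries stood apart. MCAM was 1.64-fold lower there (-0.72 ± 0.11, adjusted p = 9.5e-05), called in all alternative fits that were run. The 51 well expressed genes within 5 Mb had a median log2 change of 0.12 in the knockout. ALCAM (chromosome 3, 105366909 to 105576900) had 145 and 153 CPM in the knockout, 117 and 106 CPM in the knockdown, and 129 and 125 CPM in control cells. The knockout libraries lay above control and the knockdown libraries below it, at 0.23 ± 0.09 (adjusted p = 0.058) and -0.19 ± 0.09 (adjusted p = 0.0787). The knockout value passed the threshold in 7 of 13 alternatives (0.20 to 0.27 over all of them), and the knockdown value passed without knockdown replicate 1 (-0.26). CADM1, a homophilic adhesion protein of epithelia and synapses, had 126 and 122 CPM in the knockout, 121 and 115 CPM in the knockdown, and 113 and 114 CPM in control cells, and CADM4 had 4.85 and 6.96, 5.99 and 7.93, and 5.98 and 7.57 CPM in the same order. Neither was called. CADM2 had 0 and 0.196 CPM in the knockout, 0.580 and 0.438 CPM in the knockdown, and 0.997 and 0.492 CPM in control cells, and it was not called.

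The 3 nectins differed from one another. NECTIN1 (chromosome 11, 119623408 to 119729200) had 8.91 and 9.11 CPM in the knockout, 6.33 and 8.46 CPM in the knockdown, and 5.23 and 4.47 CPM in control cells. It rose 1.86-fold in the knockout (0.89 ± 0.23, adjusted p = 0.00798; 0.78 and not called without control replicate 2) and 1.52-fold in the knockdown (0.61 ± 0.23, adjusted p = 0.036). The knockdown call was not made without control replicate 1 (0.72), control replicate 2 (0.49) or knockdown replicate 2 (0.38). NECTIN2, a poliovirus receptor relative (chromosome 19, 44846175 to 44889223), had 39.3 and 37.8 CPM in the knockout, 23.2 and 26.5 CPM in the knockdown, and 41.8 and 47.5 CPM in control cells. It fell 1.80-fold in the knockdown (-0.85 ± 0.12, adjusted p = 5.2e-06) and was not called in the knockout. NECTIN3 (chromosome 3, 111070071 to 111275563), which pairs with NECTIN1 and NECTIN2 across cells, had 40.2 and 47.8 CPM in the knockout, 56.9 and 47.6 CPM in the knockdown, and 39.6 and 38.6 CPM in control cells. It rose 1.34-fold in the knockdown (0.42 ± 0.12, adjusted p = 0.00539), though not without control replicate 2 (0.39) or knockdown replicate 1 (0.28).

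Of the junctional molecules, JAM2 fell and the far more abundant JAM3 was not called. JAM2 (chromosome 21, 25639258 to 25717562) had 0.323 and 0.441 CPM in the knockout, 0.338 and 0.658 CPM in the knockdown, and 2.29 and 1.08 CPM in control cells. The control libraries differed from each other more than the depleted ones did. JAM2 was 4.42-fold lower in the knockout (-2.13 ± 0.72, adjusted p = 0.0375) and 3.39-fold lower in the knockdown (-1.74 ± 0.70, adjusted p = 0.0448), both near the threshold. The knockout call was lost without control replicate 1 (-1.49), control replicate 2 (-2.57), knockout replicate 1 (-1.92) or knockout replicate 2 (-2.35), and the knockdown call without control replicate 1 (-1.11), knockdown replicate 1 (-1.36) or knockdown replicate 2 (-2.30). JAM3 (chromosome 11, 134069071 to 134152001) had 129 and 124 CPM in the knockout, 136 and 123 CPM in the knockdown, and 145 and 145 CPM in control cells. Its libraries were a little lower in both depletions, at -0.20 ± 0.08 (adjusted p = 0.0996) and -0.16 ± 0.08 (adjusted p = 0.123); the knockout value passed without either knockdown library (-0.20 each) and in a fit of the 2 compared groups (-0.19), and the knockdown value without knockdown replicate 1 (-0.24). ESAM, an endothelial relative of the JAM proteins, stayed between 0.490 and 1.36 CPM and was not called.

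CD9, a tetraspanin that organises adhesion receptors in the membrane (chromosome 12, 6199715 to 6238271), had 27.0 and 26.7 CPM in the knockout, 16.8 and 17.0 CPM in the knockdown, and 33.9 and 34.2 CPM in control cells. The libraries of each group lay close together and the groups apart. CD9 was 2.01-fold lower in the knockdown (-1.01 ± 0.12, adjusted p = 1.1e-06) and 1.27-fold lower in the knockout (-0.34 ± 0.12, adjusted p = 0.047). The knockout call sat at the threshold and was not made without any 1 of control replicate 1 (-0.35), control replicate 2 (-0.34), knockout replicate 1 (-0.35) or knockout replicate 2 (-0.33). CD44, the hyaluronan receptor, was nearly silent: 0.139 and 0.196 CPM in the knockout, 0.628 and 0.921 CPM in the knockdown, and 0.299 and 0.492 CPM in control cells, with no call. Gene counts do not resolve the splice forms for which CD44, NCAM1 and NFASC are known.

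**Figure D3:**
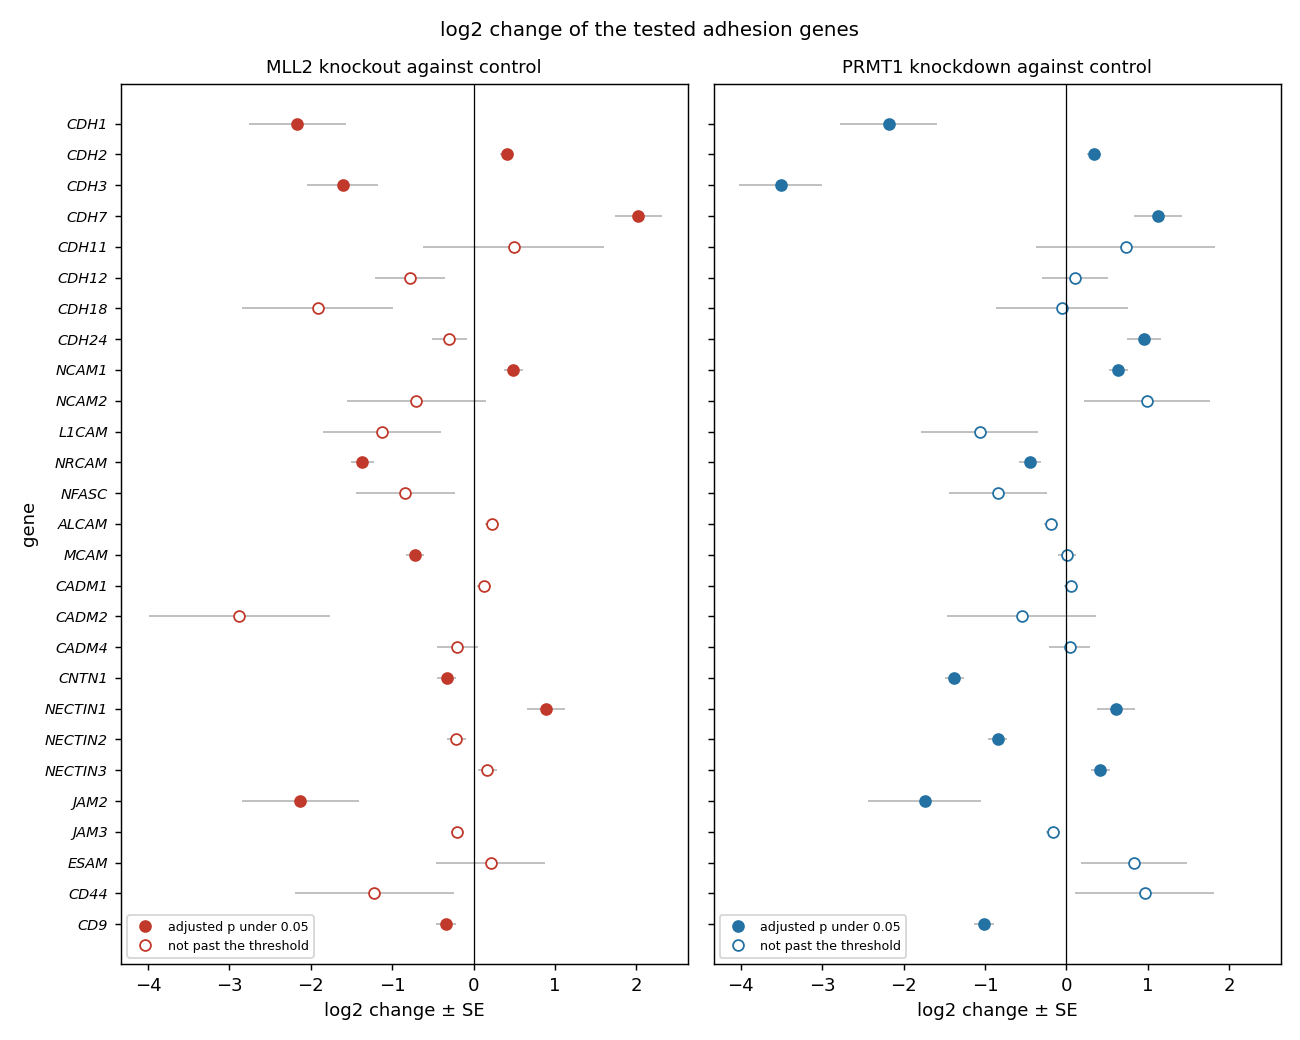
Log2 change ± SE of the 27 tested adhesion genes in the MLL2 knockout (left) and the PRMT1 knockdown (right), each against the same control libraries; filled points have an adjusted p under 0.05 and open points do not. CDH7 is the highest point on both sides at 2.03 and 1.12, and CDH3 the lowest in the knockdown at -3.51; the widest bars belong to genes of few counts such as CADM2 and CDH11.

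Set directly against the knockout, the knockdown differed in 9 of the 27 genes, 33.3% beside 40.7% of all genes tested, with 3 higher (19.4% of all genes) and 6 lower (21.4%). The median log2 difference was 0.15, against 0.01 over all genes. CDH24 was 2.39-fold higher in the knockdown than in the knockout (1.25 ± 0.21, adjusted p = 5.4e-05), NRCAM 1.89-fold (0.92 ± 0.14, adjusted p = 2.6e-05) and MCAM 1.65-fold (0.72 ± 0.11, adjusted p = 2.2e-05). The lower genes were CDH3, CNTN1, CDH7, CD9, NECTIN2 and ALCAM. CDH3 was 3.85-fold lower in the knockdown (-1.90 ± 0.53, adjusted p = 0.0063), or -1.19 and not called without knockdown replicate 1 and -3.58 without knockdown replicate 2. CNTN1 was 2.06-fold lower (-1.05 ± 0.12, adjusted p = 6.8e-07) and CDH7 1.87-fold lower (-0.90 ± 0.27, adjusted p = 0.00964), or -0.72 and not called without knockout replicate 2. CD9 (-0.67 ± 0.13, adjusted p = 2.1e-04), NECTIN2 (-0.63 ± 0.12, adjusted p = 2.0e-04) and ALCAM (-0.42 ± 0.09, adjusted p = 5.2e-04) followed. The difference of CDH2 between the depletions was -0.06 ± 0.08 (adjusted p = 0.578), and that of NCAM1 0.15 ± 0.12 (adjusted p = 0.325). CD44 and CADM2 had wide differences at few counts, 2.18 ± 0.94 (adjusted p = 0.0691) and 2.33 ± 1.13 (adjusted p = 0.107); CD44 passed in a fit of the 2 groups alone (2.19), and CADM2 without knockout replicate 2, where the remaining knockout library held 0 counts and no fold is given.

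**Figure D4:**
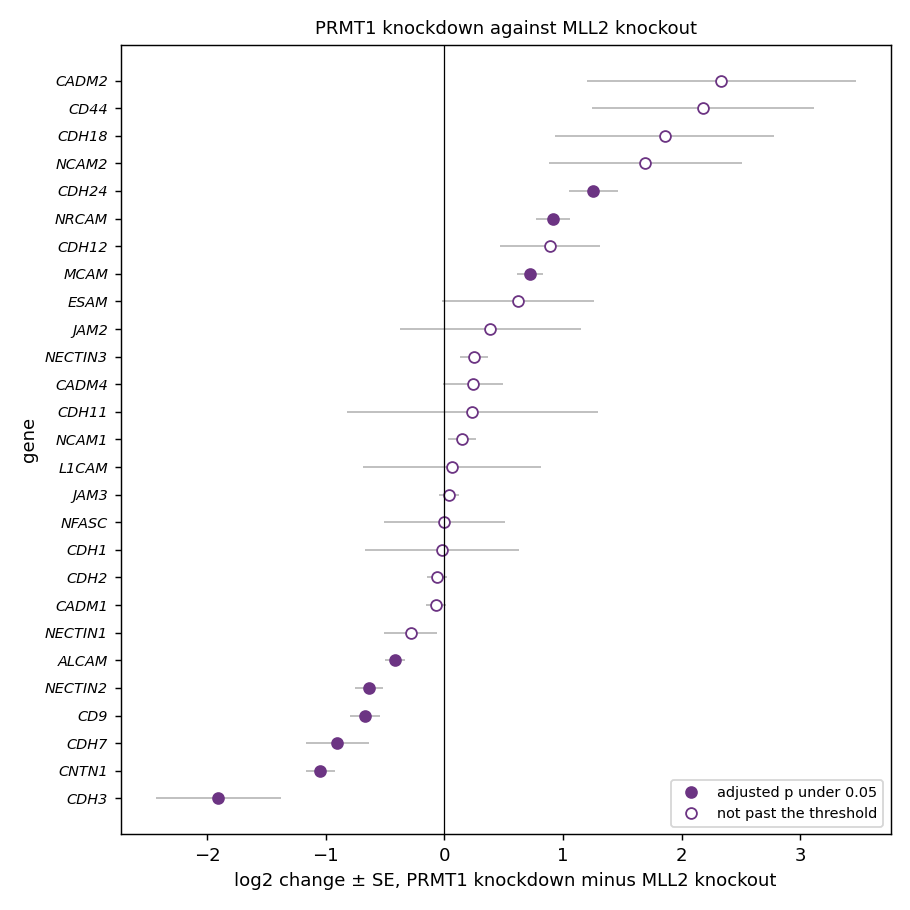
Log2 difference ± SE, PRMT1 knockdown minus MLL2 knockout, for the 27 tested adhesion genes in order of size; filled points have an adjusted p under 0.05. CDH24, NRCAM and MCAM are the filled points on the right, and CDH3, CNTN1, CDH7, CD9, NECTIN2 and ALCAM those on the left.

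The other 19 genes did not pass the filter. Among them 5 had 0 counts in every library: CDH6, CDH9, CDH19, CHL1 and DSCAM, for which a floor of 3 counts per library allows up to 0.132 to 0.150 CPM, by counting error only. The other 14 had at most 20 counts in a library and 38 in all. They include the leukocyte ligands ICAM1 and VCAM1, with 4 counts and 1 count over the 6 libraries, and VE-cadherin (CDH5), with 1 count in each control library and 0 elsewhere. M-cadherin of muscle, CDH15, had 7 and 5 counts in the knockout, 6 and 6 in the knockdown, and 2 and 0 in control cells. CDH10 had 0 and 0 counts in the knockout, 5 and 13 in the knockdown, and 6 and 2 in control cells. None of these was tested.

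Genes that work with the adhesion molecules were followed in 9 lists of 163 genes, of which 132 were tested. In the knockout 16 were called higher and 33 lower, 37.1% of those tested, beside 22.4% of all genes. In the knockdown 32 were higher and 40 lower, 54.5%, beside 47.4%. These lists too were chosen with earlier results of these data known, so the shares do not test them. By direction, 10.3% of all genes were higher and 12.1% lower in the knockout, and 22.2% and 25.3% in the knockdown. Some lists lay below the share of all genes. They were tetraspanins and partners in the knockout (17.6% called), and tight junction partners (43.8%) and other cadherins (28.6%) in the knockdown. The median log2 change of the 132 genes was -0.09 in the knockout and -0.06 in the knockdown. Of 12 tested catenins and cadherin-bound proteins, 1 was higher and 3 lower in the knockout (median -0.22), and 4 were higher and 5 lower in the knockdown (median -0.04). CTNNA1 (alpha-catenin), which couples cadherins to actin, had 307 and 308 CPM in the knockout, 196 and 175 CPM in the knockdown, and 313 and 314 CPM in control cells, and it fell in the knockdown (-0.76 ± 0.08, adjusted p = 1.9e-07). CTNND1, p120-catenin, which holds cadherins at the surface, rose in the knockdown (1.26 ± 0.21, adjusted p = 4.6e-05), as did AFDN, afadin (0.50 ± 0.08, adjusted p = 3.3e-05). CTNNBIP1, an inhibitor of beta-catenin with TCF factors, fell in the knockout (-0.91 ± 0.13) and in the knockdown (-1.33 ± 0.13).

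Ankyrins, spectrins and linkers gave 1 higher and 6 lower of 19 in the knockout (median 0.01) and 5 higher and 7 lower in the knockdown (median -0.11). ANK2, an ankyrin that L1 family proteins bind, had 58.5 and 55.7 CPM in the knockout, 52.6 and 50.4 CPM in the knockdown, and 118 and 124 CPM in control cells, and fell in both (-1.08 ± 0.09, adjusted p = 4.9e-08, and -1.23 ± 0.09, adjusted p = 9.3e-10). MSN, moesin, fell in the knockdown (-0.75 ± 0.08) along with MPP1 (-0.98 ± 0.10), while NF2, merlin, rose (0.72 ± 0.08). In the knockout MPP1 fell (-0.33 ± 0.10) and NF2 rose (0.26 ± 0.08), calls not made without control replicate 1 (-0.30 and 0.22), control replicate 2 (-0.35 and 0.31), knockout replicate 1 (-0.29 and 0.26) or knockout replicate 2 (-0.35 and 0.27). Tight junction partners gave 2 higher and 4 lower of 16 in the knockout (median -0.02) and 5 higher and 2 lower in the knockdown (median 0.14). OCLN, occludin, rose in the knockdown (1.14 ± 0.15), as did F11R, the third JAM gene (0.85 ± 0.13), and CXADR (0.88 ± 0.10; in the knockout 0.44 ± 0.10, not called without control replicate 2, at 0.41), whereas CGNL1, paracingulin, fell in the knockout (-1.70 ± 0.25) and the knockdown (-1.45 ± 0.25).

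Proteases that shed adhesion molecules gave 0 higher and 5 lower of 14 in the knockout (median -0.11) and 5 higher and 5 lower in the knockdown (median -0.08). ADAM10, which cuts N-cadherin and CD44, rose in the knockdown (0.47 ± 0.09), and ADAM15 fell there (-1.35 ± 0.09) along with BACE1 (-1.44 ± 0.21). BACE2 fell in the knockout (-1.37 ± 0.24) and so did ADAM15 (-0.27 ± 0.09), a call not made without control replicate 1 (-0.30), control replicate 2 (-0.24), knockout replicate 1 (-0.22) or knockout replicate 2 (-0.31). Tetraspanins and their partners gave 0 higher and 3 lower of 17 in the knockout (median -0.24) and 2 higher and 8 lower in the knockdown (median -0.25). TSPAN2 fell in the knockout (-1.13 ± 0.24) and the knockdown (-2.25 ± 0.26), and the CD9 partner IGSF8 fell in the knockdown (-1.27 ± 0.15), where TSPAN4 fell (-1.37 ± 0.19) and TSPAN6 rose (0.88 ± 0.09). In the knockout TSPAN6 fell (-0.33 ± 0.09, adjusted p = 0.0141), a call not made without control replicate 1 (-0.25), knockout replicate 1 (-0.30) or knockout replicate 2 (-0.36).

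Other immunoglobulin adhesion genes gave 6 higher and 3 lower of 23 in the knockout (median -0.09) and 4 higher and 8 lower in the knockdown (median -0.06). ICAM4 and ICAM5, the genes next to the nearly unread ICAM1 on chromosome 19, fell in the knockdown (-2.60 ± 0.38 and -1.53 ± 0.23), and the guidance receptor ROBO1 rose (0.90 ± 0.09). ROBO1 also rose in the knockout (0.30 ± 0.09), a call not made without control replicate 1 (0.30), control replicate 2 (0.30), knockout replicate 1 (0.31) or knockout replicate 2 (0.29). Other cadherins gave 0 higher and 7 lower of 14 in the knockout (median -0.54) and 2 higher and 2 lower in the knockdown (median -0.62). CDH23, a cadherin of hair cell tip links, fell in the knockout (-1.95 ± 0.37) and the knockdown (-2.32 ± 0.38), CDHR1 fell in the knockout (-1.46 ± 0.34; not called without control replicate 2, at -1.26), and in the knockdown the calsyntenin CLSTN3 fell (-1.08 ± 0.18; in the knockout -0.65 ± 0.18, not called without control replicate 2, at -0.54, or knockout replicate 1, at -0.47) while CLSTN1 rose (0.52 ± 0.12). Genes of hyaluronan gave 2 higher and 1 lower of 6 in the knockout (median 0.20) and 1 higher and 2 lower in the knockdown (median -0.38); CEMIP2 rose in both (0.73 ± 0.11 and 0.53 ± 0.11), and HMMR, a hyaluronan receptor, fell in the knockdown (-1.05 ± 0.09). HAS2, a hyaluronan synthase, fell in the knockout (-2.23 ± 0.68) and the knockdown (-1.86 ± 0.66), and HYAL2, a hyaluronidase, rose in the knockout (0.51 ± 0.13). The knockout calls were not made without control replicate 1 (HAS2 -2.48, HYAL2 0.52), control replicate 2 (HAS2 -1.91, HYAL2 0.51), knockout replicate 1 (HAS2 -1.70) or knockout replicate 2 (HYAL2 0.43), nor the knockdown call of HAS2 without control replicate 2 (-1.55), knockdown replicate 1 (-1.75) or knockdown replicate 2 (-1.98).

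Regulators of cadherin genes gave 4 higher and 1 lower of 12 in the knockout (median 0.23) and 5 higher and 1 lower in the knockdown (median 0.59). ZEB2, a repressor of CDH1 in many cells, had 29.5 and 30.0 CPM in the knockout, 48.6 and 49.9 CPM in the knockdown, and 22.2 and 23.0 CPM in control cells, and it rose in the knockout (0.40 ± 0.11, adjusted p = 0.0159) and the knockdown (1.12 ± 0.11, adjusted p = 7.0e-08). The knockout call of ZEB2 was not made without control replicate 1 (0.37), control replicate 2 (0.42), knockout replicate 1 (0.41) or knockout replicate 2 (0.39). SNAI2, another such repressor, had 36.7 and 36.4 CPM in the knockout, 15.1 and 15.6 CPM in the knockdown, and 34.4 and 35.4 CPM in control cells. It fell in the knockdown (-1.18 ± 0.12, adjusted p = 9.9e-08) and was not called in the knockout. REST, a repressor of neural genes, rose in the knockdown (1.03 ± 0.10), and GRHL1, an activator of epithelial genes, rose in the knockdown (1.22 ± 0.18) and the knockout (0.77 ± 0.18; not called without control replicate 1, at 0.46). The part of ZEB2, SNAI2 and the other regulators on the list in the CDH1 changes was not tested.

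**Figure D5:**
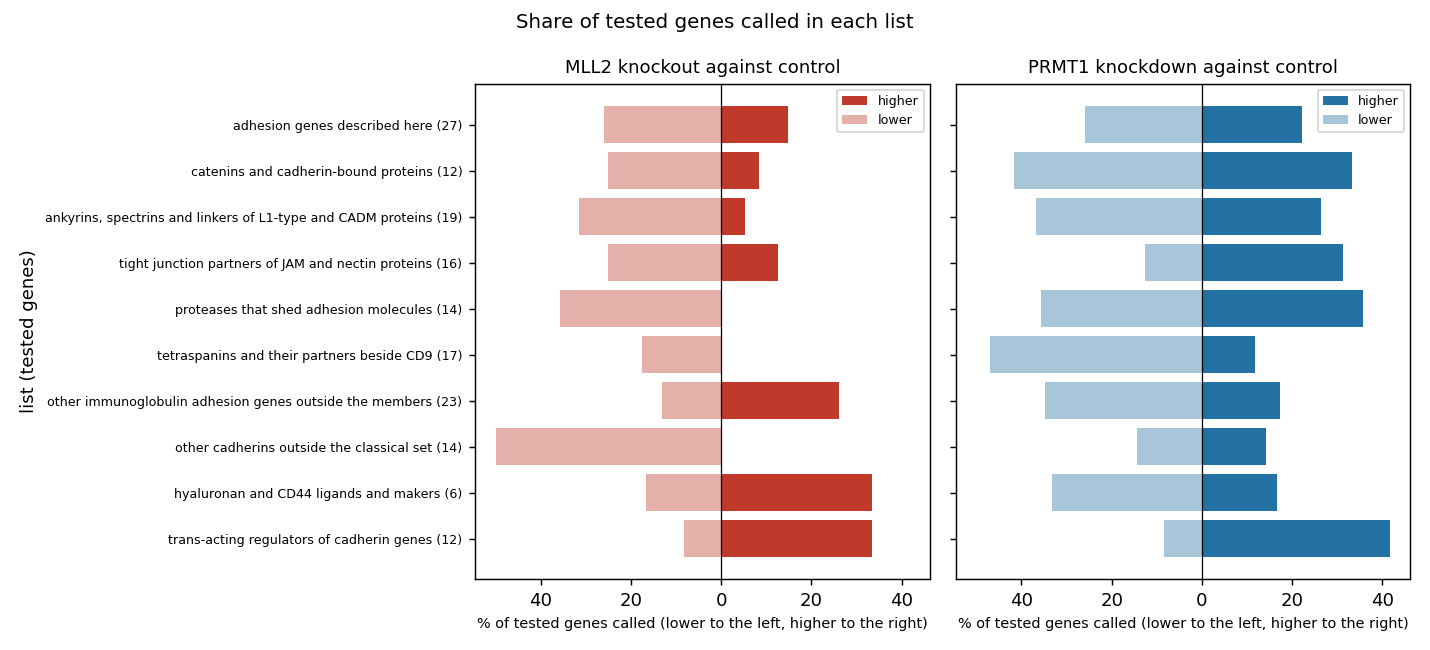
Percent of tested genes called higher (right, full colour) and lower (left, pale) in the MLL2 knockout and the PRMT1 knockdown, each against control, for the 27 adhesion genes and 9 lists of genes that work with them, with the number tested in brackets. Cadherins outside the classical set are called lower but not higher in the knockout (7 of 14), and tetraspanins and partners are called lower more often than higher in the knockdown (8 and 2 of 17). Of all genes tested, 12.1% were lower and 10.3% higher in the knockout, and 25.3% and 22.2% in the knockdown.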

How the data were processed

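Total RNA was extracted with TRIzol and made into stranded libraries, per the labels. Each deposited file gives the raw counts of 1 library, by gene and not normalized. Per the file headers they were made with featureCounts 2.0.1 on GENCODE 34, with a minimum mapping quality of 10 and reverse-stranded counting (setting 2). Per the submitters' processing notes, the build was hg38 and the tools were STAR 2.7.5a, Trim Galore 0.6.10, FastQC 0.11.4, DESeq2 1.36.0 and featureCounts 1.5.0-p1, a version that differs from the headers.

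Symbols came from a table of gene names covering 60370 of 60669 genes. Counts were filtered by filterByExpr, scaled by TMM and fitted in edgeR 4.0.16 (R 4.3.3) with a term per group over all 6 libraries, leaving 3 residual degrees of freedom, and called at an adjusted p under 0.05. CPM and RPKM were computed from the same scaled counts. The edgeR script was tested on simulated data, with few changed genes in 1 group and no trend with exon length. That test cannot check calls where a large share of genes changes, as in the knockdown. Alternatives were relative log expression scaling, 2 other filters (any count; 10 counts in 2 libraries), DESeq2 1.42.0, a fit of the 2 compared groups, a replicate term, a spline on exon length, and leaving out each library. In that last case the lone library is assumed to vary like the other groups. The members and lists were chosen with earlier results of these data known. Genes were described by library if called or at 1 CPM in a group, and up to 4 genes per list were taken by the smallest adjusted p in either depletion. The libraries of a group were described as biological replicates. Where the labels do not name separate cultures, p-values measure only the spread between these samples, which may be technical. Whether the calls hold in another knockout clone or with another hairpin was not tested. Promoter sequences are those of RefSeq on GRCh38.p14.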

Additional observations from a re-analysis of the deposited data

How the results depend on the processing

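The number of adhesion genes called in the MLL2 knockout was 11, with 3 to 13 when 1 library was left out, and that of companion genes 49, with 15 to 65. In the same fits 10.04% to 29.4% of all genes were called, against 22.4% with every library. For the knockdown the ranges were 9 to 14 and 53 to 70 (13 and 72 with all libraries), and for the knockdown against the knockout 9 to 10 and 48 to 60 (9 and 63). The other alternatives kept each count within 1.5 times. Relative log expression scaling gave 5 higher and 5 lower adhesion genes in the knockout in place of 4 and 7, and DESeq2 gave 5 and 4; the length correction gave 25 higher and 33 lower companion genes in place of 16 and 33. CD9 and CNTN1 in the knockout were not called with relative log expression scaling, without a filter or by DESeq2, CD9 also not after the length correction, and JAM2 not by DESeq2. In the knockdown DESeq2 called neither JAM2 nor NECTIN1, and a fit of the 2 groups did not call NECTIN1. Signs were compared for the 27 tested adhesion genes and for the named companion genes called with all libraries. Among these, no log2 change that passed the threshold in any of the fits turned its sign. With the replicate block, 12, 12 and 9 adhesion genes were called (knockout, knockdown, knockdown against knockout) and 57, 72 and 69 companion genes; ALCAM passed in the knockout (0.23) and JAM2 did not in the knockdown (-1.73). The labels do not say that a replicate number pairs samples, and the correlation over genes of replicate 2 minus replicate 1 was 0.0633 between knockout and control, 0.0440 between knockdown and control and 0.197 between knockdown and knockout. Depth limits the genes below 1 CPM, where a change of several-fold, as for CADM2 or CD44, did not pass the threshold.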

Other observations

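Several adhesion genes share a chromosome but were read at very different levels. CDH2, at 27950966 to 28177130 on chromosome 18, lies far from CDH20, CDH7 and CDH19, which fall between 61333430 and 66604138. On chromosome 18, CDH2 was at 144 to 156 CPM in the depleted libraries and 110.4 to 122 CPM in control cells, CDH7 at 4.01 to 8.77 CPM and 1.89 to 1.92 CPM, while CDH19 had no count in any library and CDH20 had 2 counts in 1 knockout library. On chromosome 5, CDH12 and CDH18 passed the filter, while CDH10 did not, and CDH6 and CDH9 had no count in any library. On chromosome 11, MCAM and NECTIN1 lie within 1 Mb of each other and differed in direction in the knockout: MCAM had 25.8 and 24.6 CPM against 41.3 and 41.7 CPM in control cells, and NECTIN1 8.91 and 9.11 CPM against 5.23 and 4.47 CPM.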
